A study of Mus musculus with 117 samples.

Results

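The collagens and laminins comprised 55 of the 27179 genes in the count files. They were chosen by symbol alone, as the 44 protein-coding genes named Col, a number, the letter a and a number, and the 11 genes named Lama, Lamb or Lamc with a number. Each was counted in all 117 libraries, of which 70 were astrocyte libraries and 47 were flow-through libraries.

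In RiboTag mice, Cre recombination puts an HA tag on a ribosomal protein, and antibody to HA then pulls down the ribosomes of the tagged cells with their mRNA, while the flow-through holds the RNA left behind. All mice were on a C57BL/6 background, carried the RiboTag allele, and were young adults unless a postnatal day is given. In Aldh1l1-CreERT2-RiboTag mice, Cre is induced by tamoxifen and driven by Aldh1l1, an astrocyte gene. Both fractions were sequenced from females that were uninjured (n = 4) or taken at 2 d (n = 5) or at 5, 14, 28, 42 or 70 d (n = 4 each) after a complete crush spinal cord injury (SCI) of the thoracic cord, and from males at 5 and 14 d (n = 4 each). In mGfap-Cre-73.12-RiboTag mice, Cre is driven by the mouse Gfap promoter and is active from early life, so every cell whose ancestors used that promoter is tagged, astrocyte or not. Both fractions were sequenced from mice that were uninjured at postnatal day 63, P63 (n = 5), or at 14 d after SCI (n = 5), and the astrocyte fraction alone at P0 (n = 4), P3 (n = 3), P7 (n = 3), P14 (n = 5), P21 (n = 4) and P35 (n = 4). The uninjured P63 group held 3 males and 2 females. By the labels, all P0 libraries came from males and all mGfap libraries at 14 d from females. Each age from P3 to P35 held both sexes. Tissue came from the lesion and its immediate borders, so lesion and perilesion cells share each library.

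Collagens are chains that wind into triple helices. Fibrillar collagens, such as types I, III and V, assemble into the fibrils of connective tissue and scar. Type IV collagens form the sheet-like network of basement membranes, to which laminins, each built of an alpha, a beta and a gamma chain, give the surface that cells hold on to. In the spinal cord, astrocyte endfeet rest on basement membrane around vessels and under the meninges, and fibrillar collagen lies mainly in the meninges and perivascular space until injury, after which a stromal scar rich in it forms in the lesion core.

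Members were grouped by structural role. Type IV collagen is made from gene pairs that lie head to head, and the 300-base promoter windows of Col4a1 and Col4a2 are shown first because the pair shares a stretch of DNA and the ratio of their levels is reported. Those of Lamb2 and Col23a1 follow because both genes were far higher in the astrocyte fraction of uninjured cord and then moved apart after SCI. The windows run from 250 bases before to 50 bases after the start of a curated RefSeq transcript on GRCm38.p6, and are read 5′ to 3′ on the strand of the gene. They lie at chr8:11312777-11313076 on the minus strand (Col4a1), chr8:11312555-11312854 on the plus strand (Col4a2), chr9:108479612-108479911 on the plus strand (Lamb2) and chr11:51289670-51289969 on the plus strand (Col23a1). For Col4a1, Lamb2 and Col23a1 another RefSeq transcript begins further upstream, so that point lies inside the annotated gene. Capitals mark matches, on either strand, to the CCAAT box or to the GC box GGGCGG.
Col4a1: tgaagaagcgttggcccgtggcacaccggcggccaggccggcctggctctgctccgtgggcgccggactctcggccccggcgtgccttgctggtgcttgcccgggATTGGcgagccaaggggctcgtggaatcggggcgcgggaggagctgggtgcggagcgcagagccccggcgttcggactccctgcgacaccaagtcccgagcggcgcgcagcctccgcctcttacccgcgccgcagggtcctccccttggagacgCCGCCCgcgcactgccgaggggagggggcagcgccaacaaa
Col4a2: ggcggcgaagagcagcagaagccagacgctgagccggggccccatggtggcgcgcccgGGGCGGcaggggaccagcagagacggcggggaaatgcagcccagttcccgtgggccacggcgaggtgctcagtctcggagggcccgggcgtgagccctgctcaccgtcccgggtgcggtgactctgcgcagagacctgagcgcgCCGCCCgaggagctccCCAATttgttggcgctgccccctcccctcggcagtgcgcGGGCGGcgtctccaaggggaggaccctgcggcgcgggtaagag
Lamb2: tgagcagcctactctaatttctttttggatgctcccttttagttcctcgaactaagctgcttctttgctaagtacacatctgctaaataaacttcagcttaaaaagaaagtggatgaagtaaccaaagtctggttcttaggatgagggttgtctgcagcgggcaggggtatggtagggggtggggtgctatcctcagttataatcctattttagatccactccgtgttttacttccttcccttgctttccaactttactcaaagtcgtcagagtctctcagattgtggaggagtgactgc
Col23a1: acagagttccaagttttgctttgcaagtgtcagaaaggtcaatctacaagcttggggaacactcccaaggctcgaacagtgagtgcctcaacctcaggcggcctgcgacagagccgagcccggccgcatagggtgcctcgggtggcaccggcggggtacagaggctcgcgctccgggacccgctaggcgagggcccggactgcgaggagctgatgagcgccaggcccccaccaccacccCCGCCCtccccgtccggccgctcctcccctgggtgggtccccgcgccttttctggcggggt

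The windows of Col4a1 and Col4a2 overlapped by 78 bases and held 74.0% and 73.67% G and C. That of Lamb2 held 44% and matched none of the 3 motifs searched, and that of Col23a1 held 67.67% and matched the GC box alone. The TATA box was searched as TATAAA, on both strands like the others, and matched 13.62% of all 32851 windows of the annotation. The CCAAT box matched 37.41% of windows and the GC box 35.66%. The table held 44 windows for 40 of the members, of which 5 matched the TATA box, 14 the CCAAT box and 26 the GC box. Such matches describe letters and not binding. The Col4a1 and Col4a2 genes overlap by 85 bases, and counting did not use strand, so reads in that overlap could not be assigned to either.

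Total counts ran from 40710428 to 136008399 per library. In flow-through they were 40710428 to 75175387 at 2 d, against 99521160 to 115137979 uninjured. In astrocyte libraries they were 72619805 to 90452378 at 2 d, against 95831369 to 123505722 uninjured. Libraries at 42 d held 59503373 to 81749957. Depth thus differed along with state at 2 and 42 d, and its part was not tested. Below, levels are CPM (counts scaled to a common library total, with library sizes adjusted by TMM). Levels compared between genes are also divided by exon length (FPKM). Fold changes are log2 values ± SE from edgeR's quasi-likelihood test, with adjusted p-values (FDR, Benjamini-Hochberg over all genes tested) called below 0.01. Markers of other cells were present in the astrocyte libraries and moved with injury. The summed level of 6 myeloid genes, led by Lyz2, was 46.1 to 94.7 CPM in uninjured astrocyte libraries, 1508 to 2655 at 2 d, 13960 to 18290 at 5 d, 10350 to 15960 at 14 d and 1230 to 4005 at 70 d. At 5 d, each of these genes rose more from uninjured in astrocyte libraries than in flow-through. The log2 differences ran from 2.32 (Cd14) to 3.65 (Itgam), and all were called. The sum of 8 fibroblast genes was 152.4 to 399.6 CPM uninjured, 225.8 to 312.3 at 2 d, 171.9 to 246.5 at 5 d, 293.8 to 519.8 at 14 d and 316.7 to 476.5 at 70 d, and that of 6 pericyte genes was 128.4 to 409.2, 31.7 to 74.2, 78.4 to 120.2, 260.2 to 339.4 and 344.5 to 430.2 CPM in the same order. No gene of these lists was at 0 in every library of a group, and their part in the results was not tested. The 10 astrocyte genes summed to 51730 to 60680 CPM in uninjured astrocyte libraries against 2042 to 2471 CPM in flow-through. In uninjured astrocyte libraries, animals 1 and 2 stood above animals 3 and 4 in both fibroblast genes (322.8 and 399.6 against 152.4 and 157.5 CPM) and Schwann cell genes (1263 and 1172 against 491 and 255 CPM).

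In uninjured Aldh1l1 cord, the members highest per length in the astrocyte fraction were Col1a2, a chain of type I collagen, at 41.6 ± 10.6 FPKM, Col23a1, a transmembrane collagen, at 39.7 ± 4.12 FPKM, and Lamb2, the laminin beta2 chain of vascular and pial basement membrane, at 31.8 ± 3 FPKM (mean ± SD, n = 4). Against the flow-through of the same groups, 10 of 53 members tested were higher in astrocytes and 9 lower, against 30.7% and 31.3% of all 17595 genes tested. With the replicate number as a block, 11 were higher and 14 lower. Col23a1 read 241.9, 269.6, 239.3 and 208.8 CPM in the astrocyte libraries and 15.6, 19.6, 17.5 and 11.6 CPM in flow-through, a log2 difference of 3.92 ± 0.16 (FDR = 1.1e-09). Lamb2 read 165.8 to 204 CPM against 33.1 to 55.6 CPM (2.00 ± 0.14, FDR = 1.3e-07), and Lama2, the alpha chain of laminin-211, 21.5 to 33.95 CPM against 5.6 to 7.06 CPM (2.15 ± 0.14, FDR = 8.9e-08). In none of these did the fractions overlap. The others higher in astrocytes were Col4a5, Col9a3, Col1a2, Col16a1, Lama5, Lamc1 and Col11a2. Among the 9 lower members, Col25a1, a transmembrane collagen, read 0.874 to 1.19 CPM in astrocyte libraries against 10.35 to 13.1 CPM in flow-through (-3.48, FDR = 3.6e-09), and Col6a4, a type VI chain, had 0 to 2 counts per astrocyte library and 34 to 101 per flow-through library. Col8a1 (-2.12) and Lama1 (-1.97) were among the rest. Col1a1, the partner chain of Col1a2, did not pass (-0.58, FDR = 0.27), and was called lower without uninjured animals 1 and 2 (-1.01), when 11 members were higher and 16 lower in astrocytes.

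In the astrocyte fraction, members that changed after SCI moved in both directions at 2 d and almost all upward from 14 d on. At 2 d, 18 of the 55 members were higher and 17 lower than in uninjured cord, against 30.2% and 29.9% of all 18205 genes tested. Both shares of the members at 2 d were thus near those of all genes. At 5 d, 25 were higher and 9 lower (background 28.7% and 28.1%), 30 higher with 2 lower at 14 d (24.5% and 22.8%), 27 higher with 0 lower at 28 d (22.8% and 19.1%), 22 higher with 1 lower at 42 d (23.3% and 20%), and 15 higher with 0 lower at 70 d (23.9% and 21.5%). At 70 d the share of members higher was also near that of all genes, while 0 were lower. Fitted on the 2 groups alone, 13 and 2 were called at 42 d and 7 and 0 at 70 d. The median log2 change over the members was 0.39, 0.86, 1.48, 0.82, 0.88 and 0.54 at these 6 times. Without uninjured animals 1 and 2, the astrocyte counts were 24 higher and 12 lower at 2 d, 27 with 7 at 5 d, 35 with 0 at 14 d, 32 with 0 at 28 d, 25 with 1 at 42 d and 22 with 0 at 70 d. Where a fraction holds a mix of cells, fewer cells of a type and less RNA per cell cannot be told apart. Collagens took a median of 0.0724% of counts in uninjured astrocyte libraries, 0.106% at 2 d, 0.192% at 14 d and 0.0918% at 70 d, and laminins 0.0229%, then 0.0400% at 14 d and 0.0385% at 70 d.

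**Figure D1:**
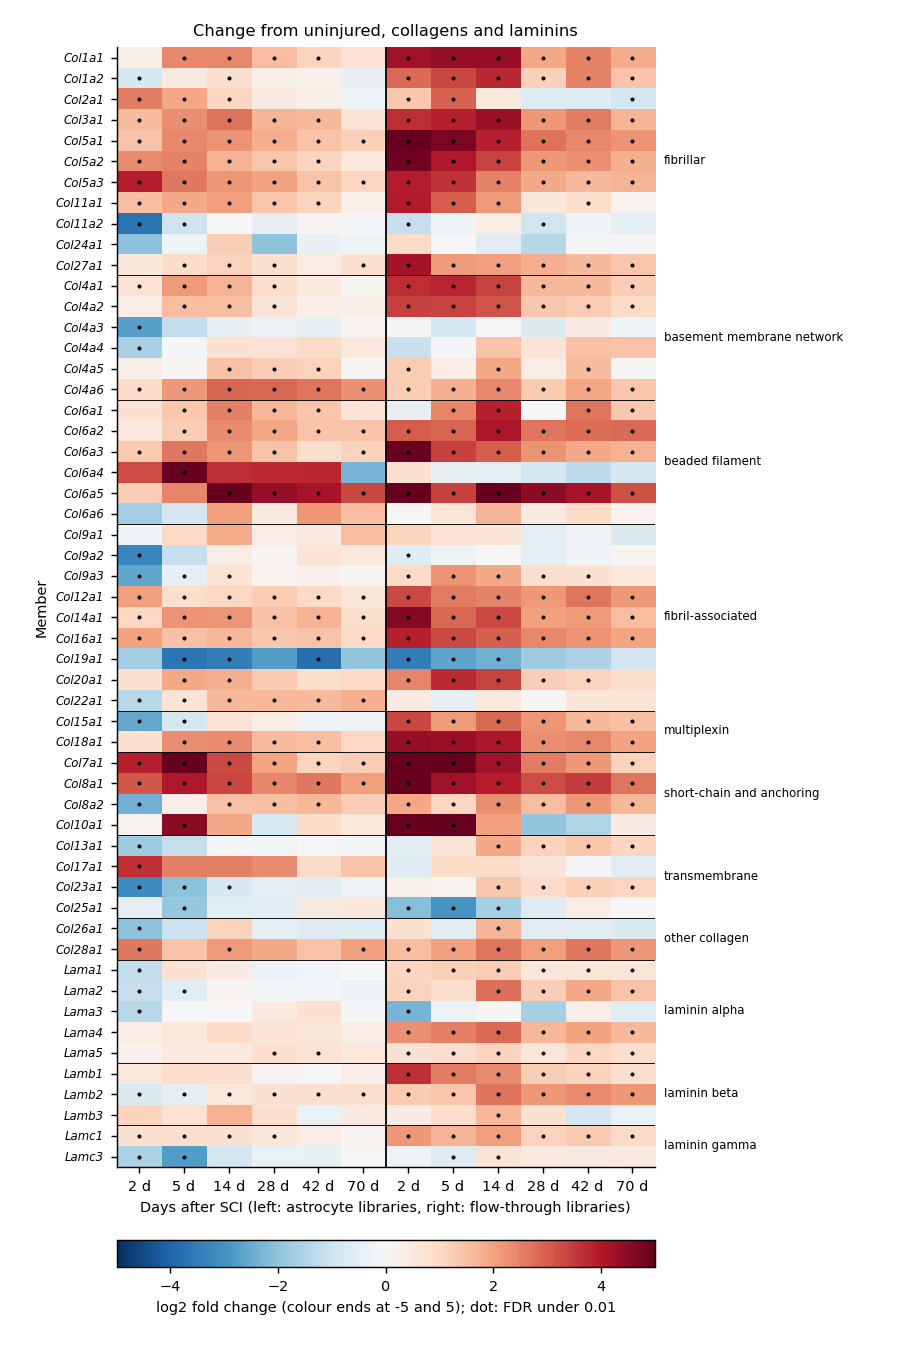
Heat map of log2 fold change against uninjured for 54 of the 55 members at 2 to 70 d after SCI in the astrocyte (left) and flow-through (right) fractions of Aldh1l1 females, with rows grouped by structural role, colour from blue (lower) to red (higher) and a dot where the FDR was under 0.01. Over all 55 members, 18 were called higher and 17 lower in astrocytes at 2 d, and 36 and 5 in flow-through.

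The flow-through moved upward at every time. It held 36 members higher and 5 lower at 2 d (32.6% and 32.9% of all 19207 genes), 35 higher with 3 lower at 5 d (27.7% and 21.8%), 40 higher with 2 lower at 14 d (24.6% and 19.5%), 34 higher with 1 lower at 28 d (26.4% and 22.6%), 37 higher with 0 lower at 42 d (25.3% and 19.2%), and 33 higher with 1 lower at 70 d (21.8% and 15.7%). Collagens made up 0.083% of flow-through counts in uninjured cord, 0.911% at 2 d, 0.951% at 14 d and 0.264% at 70 d. Of the 55 members, 21 had their highest flow-through mean at 2 d and 22 at 14 d. In the astrocyte fraction 20 peaked at 14 d and 13 at 5 d, and 7 peaked at 2 d. Peaks were not counted over all genes, so these counts have no background. In flow-through libraries the fibroblast genes summed to 145.3 to 306.7 CPM uninjured, 565.1 to 1747 at 2 d, 1014 to 1103 at 14 d and 632.6 to 832 at 70 d, moving with the collagens, and this was not tested further.

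Among the 11 fibrillar genes, 6 rose and 2 fell in astrocytes at 2 d, 9 rose and 0 fell at 14 d, and 3 rose and 0 fell at 70 d. Of all genes, 60.1%, 47.3% and 45.3% were called in either direction at these times. Col1a1 read 102.1, 174.2, 64.8 and 43.1 CPM in uninjured astrocyte libraries, 96.5, 117.9, 159.6, 111.0 and 122.6 CPM at 2 d, and 484.5, 520.5, 524.8 and 528.8 CPM at 5 d. The 2 d libraries lay inside the uninjured range (0.35 ± 0.30, FDR = 0.31), although they were called higher when uninjured animals 1 and 2 were left out (1.18), whereas all libraries at 5 d stood above it (2.40 ± 0.33, FDR = 5.3e-07). At 14 d it read 464.4, 668.6, 483.3 and 483.4 CPM (2.40 ± 0.33, FDR = 7.5e-07). At 70 d it read 226.2, 103.4, 142.3 and 152.0 CPM, which overlapped uninjured values (0.71 ± 0.31, FDR = 0.057) and was called without animal 2 (1.17) or without animals 1 and 2 (1.54). In flow-through, Col1a1 went from 174, 183.2, 140.6 and 85.99 CPM to 4711, 1370, 2727, 644.9 and 3696 CPM at 2 d (4.19 ± 0.40, FDR = 2.3e-10) and 3034, 3113, 2742 and 2922 CPM at 14 d (4.35 ± 0.41, FDR = 5e-10). Flow-through libraries 2 and 4 at 2 d were lowest for Col1a1 and also lowest for the myeloid genes (2083 and 1590 against 3612 to 6445 CPM in the rest).

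Col1a2 did not follow Col1a1 in astrocytes at first. It read 210.9, 296.2, 193.5 and 168.7 CPM uninjured and 94.3, 138.2, 156.6, 116.5 and 121.4 CPM at 2 d, with every 2 d library below every uninjured one (-0.79 ± 0.19, FDR = 0.0007). Without uninjured animals 1 and 2 the change was -0.52 and was not called. At 14 d it read 344.1, 476.7, 356.7 and 398.6 CPM, all above uninjured (0.80 ± 0.20, FDR = 0.0014). Col3a1, the type III chain found with type I in scar, rose from 59.9, 93.1, 27.6 and 19.9 CPM to 120.3 to 219.7 CPM at 2 d (1.57 ± 0.36, FDR = 0.00044, not called in a fit of the 2 groups alone at 1.59) and 296.1, 466.6, 306.2 and 306 CPM at 14 d (2.73 ± 0.39, FDR = 1.5e-06). Col5a3, a type V chain, read 8.32, 9.44, 6.42 and 6.93 CPM in uninjured astrocyte libraries and 99.6, 125.7, 115.3, 133.4 and 114.1 CPM at 2 d (3.93 ± 0.16, FDR = 3.9e-18), the largest 2 d change among members in astrocyte libraries. It came down to 14.9, 16.5, 16.3 and 17.5 CPM at 70 d, still above every uninjured library (1.07 ± 0.15, FDR = 7.4e-07). Col5a1, the main type V chain, rose most of the fibrillar genes in flow-through at 5 d, from 14.1, 14.3, 8.63 and 4.54 CPM to 243, 258.9, 263.4 and 276.8 CPM (4.72, FDR = 7.7e-15). Col11a2, a type XI chain of cartilage fibrils, moved the other way, from 33.3, 34.1, 32.5 and 34.8 CPM to 2.602, 3.02, 2.37, 2.89 and 2.63 CPM at 2 d (-3.63 ± 0.16, FDR = 1.1e-17), and at 14 d it was not called.

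**Figure D2:**
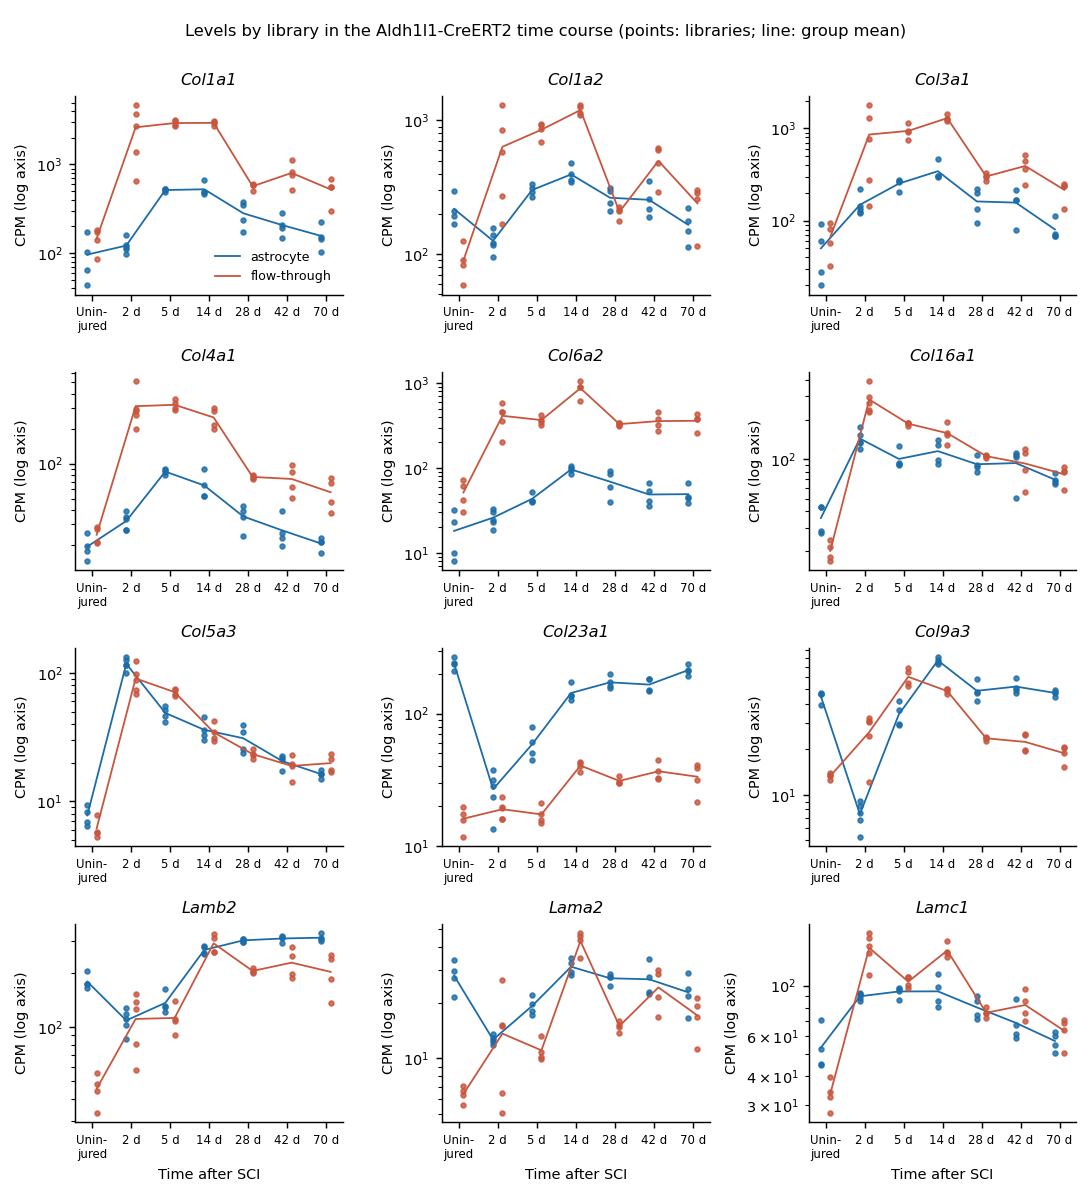
CPM (log axis) of selected members by state in Aldh1l1 females, with 1 point per library and a line through group means, astrocyte and flow-through fractions in separate colours. Col23a1 in astrocytes drops from 208.8 to 269.6 CPM to 13.4 to 37.7 CPM at 2 d, while Col5a3 climbs from 6.42 to 9.44 CPM to 99.6 to 133.4 CPM.

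The basement membrane network genes, the 6 type IV chains, had 2 members higher and 2 lower in astrocytes at 2 d, and 4 higher and 0 lower at 14 d. The share of all genes called in either direction was 60.1% and 47.3%. Col4a1 read 19.6, 25.3, 17.7 and 14.4 CPM uninjured and 80.1, 88.1, 84.0 and 89.1 CPM at 5 d (2.12 ± 0.21, FDR = 1.3e-09), and its change at 70 d was 0.09 (FDR = 0.72). Col4a2 changed by 1.55 at 5 d (FDR = 1.7e-07), and its ratio to Col4a1 per length had medians, as Col4a1 over Col4a2, between 0.92 and 1.65 in the astrocyte time course and between 0.82 and 1.12 in flow-through. Col4a6, a chain of the type IV network found with Col4a5, stayed higher for longer. It read 1.23, 3.09, 1.94 and 0.688 CPM uninjured, 11.67, 13.6, 14.8 and 14.1 CPM at 14 d (2.90 ± 0.27, FDR = 3.2e-10) and 8.49, 7.42, 8.88 and 9.50 CPM at 70 d (2.30, FDR = 3.3e-08), with all 70 d libraries above all uninjured ones.

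Of the beaded filament genes, which encode type VI collagen, 1 of 6 rose in astrocytes at 2 d and 4 rose at 14 d. Over all genes, 60.1% and 47.3% were called, higher or lower, at these times. Col6a2 read 23.1, 31.8, 9.99 and 7.96 CPM uninjured and 85.3, 101.3, 93.8 and 104.8 CPM at 14 d (2.35, FDR = 1.4e-06). In flow-through it had already climbed at 2 d, from 29.99 to 71.95 CPM to 204.9 to 586 CPM, whereas Col6a1 read 8.80, 18.4, 12.7 and 7.33 CPM uninjured and 18.5, 6.78, 6.69, 3.77 and 7.25 CPM at 2 d (-0.43, FDR = 0.34). The 2 d libraries of Col6a1 overlapped the uninjured ones, and at 14 d all stood far above them at 124.4, 171.9, 177.4 and 219 CPM. Col6a5, a type VI chain of low level, had the largest called change of any member at 14 d in both fractions. It had 0 to 10 counts in each uninjured astrocyte library and 79 to 264 at 14 d (5.52, FDR = 9.9e-05). In flow-through it read 0.333, 0.367, 0.147 and 0.212 CPM uninjured and 9.53, 12.4, 7.99 and 8.38 CPM at 14 d (5.18, FDR = 2.7e-10), and it was also the member with the largest called change there at 28 d (4.49), 42 d (4.10) and 70 d (3.17). Col6a4 had 0 to 2 counts per uninjured astrocyte library and 13 to 33 at 5 d.

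Fibril-associated collagens, which coat fibrils, split in astrocytes at 2 d, when 3 of 9 rose and 3 fell. Among all genes, 60.1% were called in either direction. Col16a1 went from 43.4, 43.02, 28.1 and 27.4 CPM to 132.4, 175.9, 120.2, 134.7 and 153.5 CPM (2.02 ± 0.20, FDR = 8.9e-10), and Col9a3, a type IX chain, from 47.3, 46.2, 39.4 and 46.3 CPM to 5.23, 9.14, 7.59, 6.83 and 8.36 CPM (-2.59 ± 0.13, FDR = 1.6e-16). By 14 d Col9a3 stood above its uninjured level, at 78.5, 73.2, 81.8 and 75.9 CPM (0.74 ± 0.13, FDR = 1.6e-05). Col22a1, known from tissue junctions, likewise turned from -1.38 ± 0.20 at 2 d (FDR = 8.6e-07) to 1.63 ± 0.21 at 14 d (FDR = 1.4e-07) and 1.78 ± 0.21 at 70 d (FDR = 5e-08), so both crossed from below to above uninjured. Col19a1, a fibril-associated chain of low level, had 33 to 79 counts per uninjured astrocyte library and 2 to 8 at 14 d (-3.48, FDR = 0.0046). Its call was lost without any 1 of 4 libraries (-3.61 to -3.11) and without uninjured animals 1 and 2 (-3.76).

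The multiplexins, collagens XV and XVIII of the basement membrane zone, differed between fractions. Col15a1 read 19.6, 25.9, 10.97 and 11.6 CPM in uninjured astrocyte libraries and 2.37, 2.01, 4.45, 3.07 and 2.56 CPM at 2 d (-2.55 ± 0.26, FDR = 2e-09). In flow-through it read 18.3, 18.2, 13.3 and 12.7 CPM uninjured and 169.3, 178.9, 140.3, 149.4 and 145.9 CPM at 2 d (3.36 ± 0.17, FDR = 2.4e-16), so it fell in 1 fraction while rising in the other. Col18a1, whose C-terminal fragment is endostatin, was not called in astrocytes at 2 d (0.78, FDR = 0.057), except without uninjured animal 2 (1.27) or without animals 1 and 2 (1.83), and rose at 14 d (2.36, FDR = 1e-05).

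At 2 d the 3 largest called flow-through changes were those of short-chain and anchoring collagens. Of these collagens, 4 of 4 were higher, where 65.6% of all genes were called in either direction. Col7a1, the anchoring fibril collagen of skin, read 0.626, 0.664, 0.408 and 0.773 CPM in uninjured flow-through and 121.9, 262.3, 134.7, 136.8 and 149.7 CPM at 2 d (8.06 ± 0.32, FDR = 4.5e-18), and was down to 1.04 to 1.78 CPM at 70 d. In astrocytes it peaked at 5 d, at 6.81, 5.10, 8.04 and 7.26 CPM from 0.149 to 0.312 CPM (4.97 ± 0.33, FDR = 1.1e-13). Col8a1, a network-forming collagen of vessel walls, went from 3.13 to 8.91 CPM to 511.6 to 1022 CPM in flow-through at 2 d (6.78 ± 0.29, FDR = 2e-17) and from 0.727 to 1.90 CPM to 22.1 to 24.2 CPM in astrocytes at 5 d (4.01 ± 0.28, FDR = 6.9e-13). Col10a1, the hypertrophic cartilage collagen, is given by counts because it started near the floor. It had 0 to 10 counts in each uninjured flow-through library, 507 to 3497 at 2 d (median 1238), 61 to 389 at 5 d and 0 to 48 at 14 d.

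Among the transmembrane collagens, Col23a1 was high in astrocytes before injury and low after it. It read 13.4, 37.7, 23.4, 28.3 and 31.4 CPM at 2 d (-3.15 ± 0.20, FDR = 1.3e-13), 60.9, 44.9, 50.1 and 78.8 CPM at 5 d (-2.06 ± 0.21, FDR = 1.5e-09), 172.5, 135.2, 138 and 128 CPM at 14 d (-0.79 ± 0.20, FDR = 0.0012) and 236.7, 213.3, 210.2 and 193.9 CPM at 70 d (-0.16, FDR = 0.51). Without uninjured animals 1 and 2, the 14 d change was -0.68 and was not called. Up to 14 d every library was below the uninjured range of 208.8 to 269.6 CPM, and at 70 d the groups overlapped. Col17a1, the hemidesmosome collagen of epithelia, had 0 to 10 counts per uninjured astrocyte library and 22 to 51 at 2 d (3.67, FDR = 0.0043), a call lost without any 1 of 3 uninjured libraries (3.26 to 3.58). The summed astrocyte marker genes, of 51730 to 60680 CPM uninjured, were also lower at 2 d, at 23020 to 31830 CPM, and stood at 43470 to 52500 CPM at 14 d.

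Of the 11 laminin genes, 2 rose and 5 fell in astrocytes at 2 d, 1 rose and 3 fell at 5 d, and 2 rose and 0 fell at 14 d. Over all genes, 60.1%, 56.8% and 47.3% were called in either direction. In flow-through 8 rose and 1 fell at 2 d, and 10 rose and 0 fell at 14 d (65.6% and 44.1% of all genes were called). Lamb2 in astrocytes read 165.8, 204, 173.6 and 173 CPM uninjured and 85.9, 118.4, 103, 127 and 110.3 CPM at 2 d (-0.71 ± 0.09, FDR = 4.8e-08). It then passed its starting level, at 255, 259.4, 278.7 and 281.6 CPM at 14 d (0.53 ± 0.09, FDR = 2.1e-05) and 308.8, 335.1, 301 and 312.5 CPM at 70 d (0.82 ± 0.10, FDR = 3.2e-08). None of these groups overlapped the uninjured one, and Lamb2 was the 1 laminin called higher at 70 d. In flow-through it was already up at 2 d (1.32 ± 0.22, FDR = 4.3e-06) and reached 261.3, 262.7, 314.6 and 330.8 CPM at 14 d from 48.5, 55.6, 44.3 and 33.1 CPM (2.70 ± 0.24, FDR = 1.2e-10).

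Lama2 in astrocytes read 21.5, 33.95, 29.6 and 27.1 CPM uninjured and 12.9, 11.8, 13.6, 12.2 and 12.6 CPM at 2 d (-1.15 ± 0.13, FDR = 1.3e-08), with no overlap, and was at 0.11 (FDR = 0.54) by 14 d. Lama4, the alpha chain of endothelial and other vascular laminins, rose in flow-through (2.30 at 2 d, 2.84 at 14 d), where Lamb1, the beta1 chain, rose most at 2 d (3.64) and Lamc1, the gamma1 chain shared by most laminins, by 2.16. In astrocytes Lamc1 read 52.5, 70.9, 45.0 and 45.5 CPM uninjured and 92.9, 87.8, 90.8, 85.3 and 91.8 CPM at 2 d (0.75 ± 0.12, FDR = 2.3e-06), and at 70 d its change was 0.10. Endothelial genes summed to 12.5 to 31.7 CPM in uninjured and 43.9 to 54.9 CPM in 2 d astrocyte libraries, and to 129 to 139.4 and 347.5 to 482.8 CPM in flow-through.

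The makeup of laminin alpha chains differed between fractions and states. Per length, Lama2 took a median of 51.1% of alpha-chain signal in uninjured astrocyte libraries, 27% at 2 d, 40.6% at 14 d and 37.2% at 70 d, against 16.9% in uninjured flow-through. Lama4 took 26.4% in uninjured astrocyte libraries and 45.6% at 2 d, against 49.2% uninjured and 72.9% at 2 d in flow-through. Beta chains also differed, the ratio of Lamb1 to Lamb2 per length being 0.0468 in uninjured astrocytes, 0.107 at 2 d and 0.0333 at 70 d, against 0.235, 1.14 and, at 14 d, 0.176 in flow-through.

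Type I collagen chains, which assemble in a fixed proportion, were read in shifting proportion. The ratio of Col1a1 to Col1a2 per length had a median of 0.361 in uninjured astrocyte libraries (0.225 to 0.518), 0.889 at 2 d, 1.49 at 5 d (1.36 to 1.73), 1.19 at 14 d and 0.824 at 70 d (0.752 to 0.897), so no library at 5 or 70 d overlapped an uninjured one. In flow-through it was 1.34 uninjured (1.28 to 1.84), 3.84 at 2 d (3.18 to 4.44), 2.16 at 14 d and 1.96 at 70 d. For type VI, the ratio of Col6a1 to Col6a2 in flow-through was 0.408 uninjured and 0.0278 at 2 d (0.0221 to 0.0476). These ratios are of RNA reads, and no test was made of them.

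**Figure D3:**
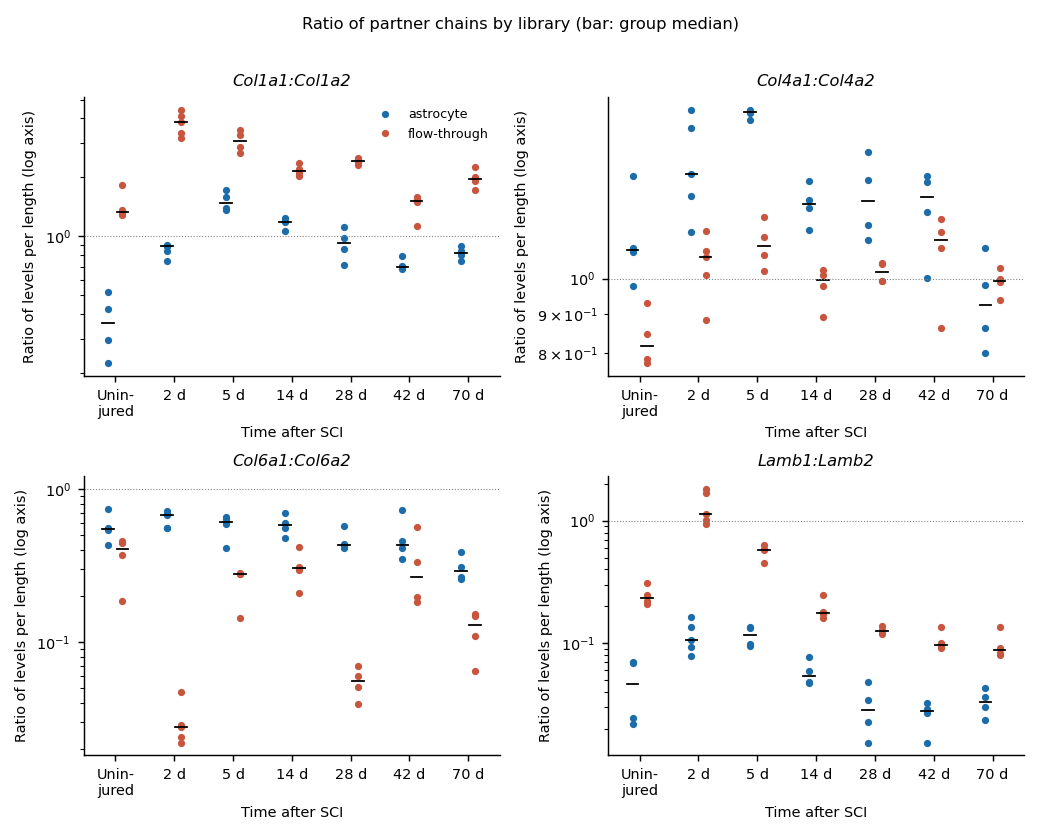
Ratio of FPKM between paired chains (log axis) by state, with 1 point per library, a bar at each group median and a dotted line at equal levels, for astrocyte and flow-through libraries of Aldh1l1 females. Col1a1 over Col1a2 sits between 0.225 and 0.518 in uninjured astrocyte libraries and between 1.36 and 1.73 at 5 d.

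Whether the change after SCI differed between the fractions was tested as the astrocyte change minus the flow-through change, over 19640 genes. At 2 d, 2 members had a larger and 35 a smaller change in astrocytes (background 30.1% and 20.6%), with a median difference of -2.08 over members against 0.30 over all genes. At 5 d the counts were 2 and 21 (17.7% and 10.9%, median of all genes 0.19), and 1 larger with 19 smaller at 14 d (14.5% and 10%, 0.13). At 28 d 3 were larger and 6 smaller (15.5% and 12.9%, 0.10), or 4 and 10 with the replicate number as a block. At 42 d 1 was larger and 10 smaller (12.6% and 10.7%), or 0 and 16 with that block, or 18 in all without uninjured astrocyte library 4. At 70 d 0 were larger and 10 smaller (8.8% and 8.9%), or 1 and 12 with that block. Apart from Col10a1, given by its counts above, Col15a1 had the difference furthest from 0 at 2 d (-5.72 ± 0.32, FDR = 2.9e-21). Among members called at 14 d the furthest were Col1a2 (-2.82 ± 0.46, FDR = 1.6e-06), Lama2 (-2.53, FDR = 4.1e-08) and Lamb2 (-2.04 ± 0.25, FDR = 2.6e-09). For Col5a3 the difference at 2 d was 0.20 (FDR = 0.43). By the methods of the study, the flow-through is what remains after each precipitation, so both fractions came from the same animals.

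Genes that act on collagens and laminins were read from 4 lists. Of all genes, 60.1% were called in astrocytes at 2 d, 47.3% at 14 d and 45.3% at 70 d. In flow-through at 2 d this share was 65.6%. Every gene given with a value in this paragraph rose, and those that fell are not named. Of 19 genes of collagen modification and secretion, such as hydroxylases and the chaperone Serpinh1, 11 rose and 7 fell in astrocytes at 2 d, 11 rose and 2 fell at 14 d, and 7 rose and 3 fell at 70 d. In flow-through 14 rose and 1 fell at 2 d. Plod3, a lysyl hydroxylase, rose by 2.05 at 2 d (FDR = 8.8e-19), and Crtap, a subunit of a prolyl hydroxylase complex, by 1.98 at 14 d (FDR = 8e-12). Of 13 genes of procollagen processing and cross-linking, 6 rose and 1 fell in astrocytes at 2 d and 6 rose and 0 fell at 14 d, led by Adamts14, a procollagen N-proteinase (4.77, FDR = 6.2e-09, at 2 d), and Loxl2, a lysyl oxidase (2.81, FDR = 3.6e-13, at 14 d). Of 11 basement membrane partners, 3 rose and 2 fell at 2 d (1 and 1 in a fit of the 2 groups alone, 2 and 1 without uninjured library 3) and 7 rose and 2 fell at 14 d, among them Hspg2, which encodes perlecan (1.48, FDR = 1.1e-07). Nid2, a nidogen, rose by 1.34 (FDR = 3.3e-06). Of 15 receptors tested, 4 rose and 3 fell at 2 d and 9 rose and 0 fell at 14 d, including the myeloid receptor Lair1 (1.87, FDR = 7.9e-12).

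After birth the members fell together in mGfap astrocyte libraries. From P0 to P63, 2 of 55 were higher and 44 lower (background 25.3% and 24%), with a median log2 change of -3.60. Of the members, 41 had their highest mean at P0 and 39 their lowest at P63, counts not made over all genes. The fall spanned the whole interval, with 2 higher and 15 lower from P0 to P7 (11.9% and 6.61%), 2 and 17 from P7 to P21 (7.73% and 6.49%), and 0 and 26 from P21 to P63 (2.19% and 4.77%), or 17 members in all without P21 library 2. Collagens took 1.12% of counts at P0, 0.388% at P7, 0.154% at P21 and 0.0681% at P63, and laminins 0.322% at P0 and 0.0209% at P63. Schwann cell genes summed to 6338 to 19670 CPM at P0, 15420 to 16690 at P7, 1878 to 5625 at P21 and 1012 to 2001 at P63, and fibroblast genes to 234 to 605.3 CPM at P0 and 50.7 to 93.4 at P63. Both sums were thus lower at P63 than at P0, as the collagens were. At P7 the Schwann cell range lay within that at P0 and the collagen share was lower, and the fibroblast sum at P7 is not given here. The part of other cells was not tested. At P35 libraries 1 and 3 read 3587 and 9561 CPM of Schwann cell genes and libraries 2 and 4 read 16.5 and 33 CPM, and Col1a1 read 99.3 and 103.9 against 12.5 and 14.3 CPM in them.

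Col3a1 read 3243, 2226, 4527 and 1713 CPM at P0 and 14.2, 47.2, 25.96, 13.3 and 24.3 CPM at P63 (-6.87 ± 0.73, FDR = 5.4e-09). Lama4 read 377.6, 253.3, 486.3 and 202.5 CPM at P0 and 3.17, 3.78, 2.90, 3.24 and 4.58 CPM at P63 (-6.55 ± 0.58, FDR = 1.3e-10), and Lamc1 690.3 to 1322 CPM against 40.6 to 53.4 CPM (-4.41 ± 0.19, FDR = 3.9e-18). Col14a1, a fibril-associated collagen, read 173.8 to 307 CPM at P0 and 1.66 to 3.98 CPM at P63 (-6.50, FDR = 9.4e-09). From P0 to P7 the largest called change was that of Col9a2, a type IX chain, from 184.4 to 530.1 CPM down to 45.7 to 55.2 CPM (-2.72, FDR = 3.5e-08). None of these overlapped. Lamb2 was not called, reading 167.8, 185.8, 136.5 and 194.7 CPM at P0 and 132.5, 159.9, 137.6, 136.6 and 141.7 CPM at P63, with overlap (-0.27, FDR = 0.073). The ratio of Lamb1 to Lamb2 per length thus went from 4.25 at P0 to 1.21 at P7 and 0.0871 at P63. Per length Lama4 led the alpha chains at P0 (62.95%) and Lama2 at P63 (53.9%). Col11a2 was 1 of the 2 members that rose, from 13.04, 8.86, 8.45 and 5.54 CPM to 45.5, 47.2, 51.2, 48.2 and 46.99 CPM (2.41 ± 0.17, FDR = 1.3e-13). The other, Lamb3, had 0 or 1 counts in each P0 library and 2 to 22 at P63. Col23a1 read 432.7 ± 83.1 CPM (SD, n = 4) at P0 and 258.8 ± 26.2 CPM (n = 5) at P63 (-0.74, FDR = 0.00022). Of the 11 basement membrane partners, 1 rose and 9 fell from P0 to P63 (49.3% of all genes were called), led by Nid2 (-5.48, FDR = 1.3e-13).

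**Figure D4:**
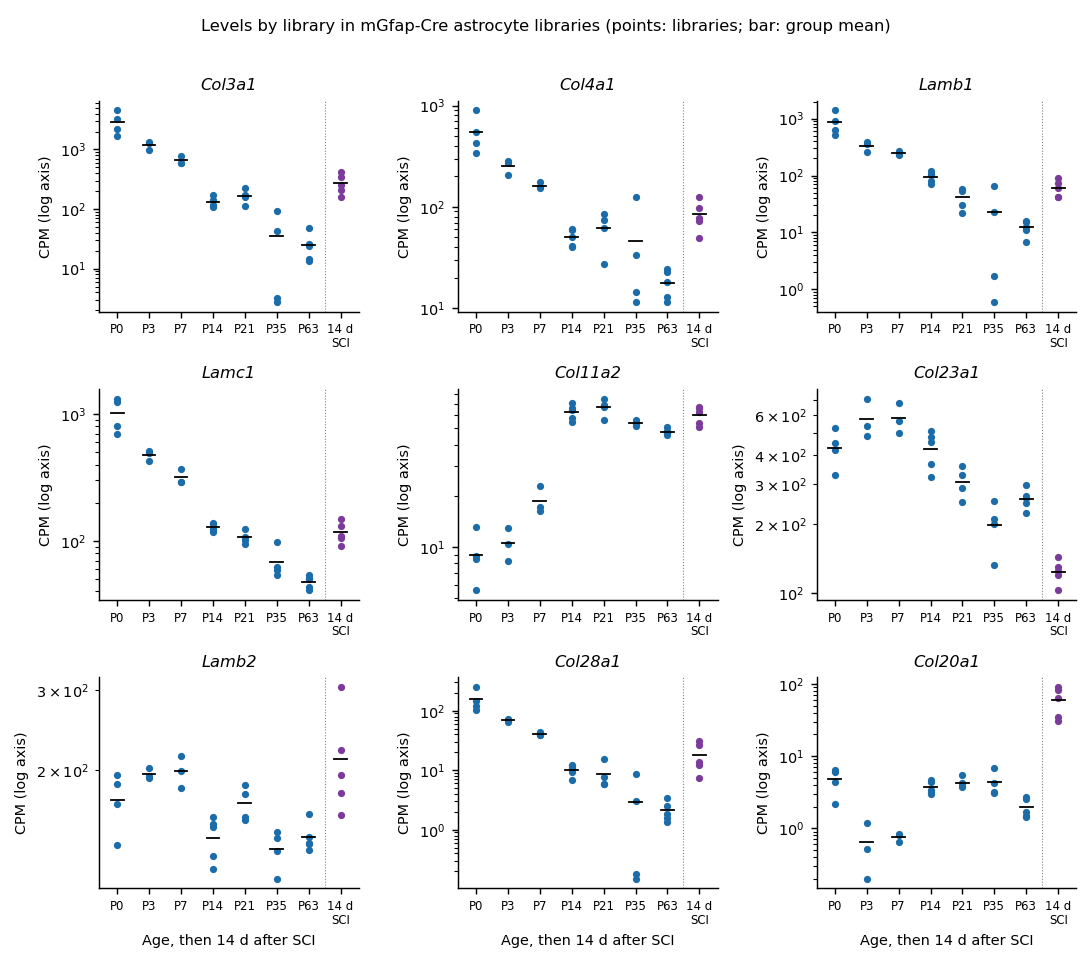
CPM (log axis) of selected members in mGfap astrocyte libraries by age, then at 14 d after SCI, with 1 point per library and a bar at each mean. Lamc1 runs from 690.3 to 1322 CPM at P0 down to 40.6 to 53.4 CPM at P63, while Lamb2 stays between 132.5 and 194.7 CPM at both ages.

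In mGfap astrocytes at 14 d after SCI, 37 of 55 members were higher and 1 lower than at P63 (background 18.2% and 15.9%), with a median log2 change of 2.18, and in the flow-through 40 of 54 were higher and 2 lower (32.9% and 28.4%). Col6a2 read 2.34, 4.38, 3.61, 2.603 and 4.45 CPM at P63 and 101.8, 97.5, 174.7, 151.3 and 134.9 CPM at 14 d (5.24 ± 0.40, FDR = 2.3e-11). Col20a1, a fibril-associated collagen, read 1.48, 1.44, 2.59, 1.69 and 2.70 CPM against 34.6, 31.2, 81.5, 91.3 and 64.5 CPM (4.94 ± 0.39, FDR = 2.2e-11). The groups were wide apart for both. Col6a1 had the largest called change, from 0.031 to 2.03 CPM to 10.3 to 57.7 CPM (5.44, FDR = 4.5e-08), and in flow-through this was Col6a5 (5.43, FDR = 2.8e-06). Col1a1 went from 18.1 to 42.8 CPM to 274 to 508.7 CPM (3.61, FDR = 2.2e-07), Col1a2 changed by 0.94 (FDR = 0.0014) and Lamb2 rose by 0.58 (FDR = 0.00033). Col23a1 was the member that fell (-1.06, FDR = 1.3e-06). The myeloid genes summed to 13.4 to 23.3 CPM at P63 and 194.9 to 1555 CPM at 14 d, below the 10350 to 15960 CPM of Aldh1l1 astrocyte libraries at that time, and Schwann cell genes to 1012 to 2001 and 2208 to 5106 CPM. Set against P0, 4 members were higher and 31 lower at 14 d (27.5% and 23.6%). Col11a2 (2.74) and Col20a1 (3.66) stood above P0, and Lama4 (-3.39) and Col1a1 (-1.97, FDR = 0.00035) below it. This comparison shares its 14 d libraries with the one against P63. It also sets females at 14 d against males at P0, so sex differs along with age and injury.

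The lines were compared directly. In uninjured astrocytes, 5 members were higher and 7 lower in mGfap than in Aldh1l1 mice (5.54% and 6.86%), among the lower Lamc3, a laminin gamma chain (-3.08, FDR = 0.00071), Col6a1 (-2.82, FDR = 0.0033), Col15a1 (-2.56, FDR = 1.1e-05) and Col1a1 (-1.82, FDR = 0.0011). Without uninjured animals 1 and 2, 4 were higher and 2 lower, and Lamc3 (-1.94), Col6a1 (-2.03) and Col1a1 (-0.94) were not called. At 14 d 9 were higher and 0 lower (12% and 11.4%), Col20a1 by 5.37 ± 0.41 (FDR = 9.1e-09), Col28a1, a collagen known from Schwann cells, by 3.18 (FDR = 0.00016) and Col9a1 by 2.14 (FDR = 0.0048). The call of Col9a1 was lost with the replicate number as a block (2.08) and without any 1 of 6 libraries (1.96 to 2.24). The change from uninjured to 14 d was larger in mGfap for 6 members and smaller for 0 (7.71% and 4.94%, median of all genes 0.11), namely Col13a1, a transmembrane collagen (3.86 ± 0.55, FDR = 5.1e-05), Col20a1 (3.16, FDR = 0.0003), Col6a2 (2.96, FDR = 0.00015), Col15a1 (2.53, FDR = 0.00028), Lama4 (2.28, FDR = 0.0043) and Col27a1, a fibrillar collagen of cartilage (1.05, FDR = 0.0084). Without uninjured Aldh1l1 animals 1 and 2, 4 members had a larger and 1 a smaller change, Col6a2 differed by 1.78, and Lama4 (0.99) and Col27a1 (0.75) were not called. The call of Lama4 was also lost without Aldh1l1 library 1 (2.20) or 3 (2.00) at 14 d, and that of Col27a1 without any 1 of 14 libraries (0.85 to 1.12). With labelled sex as a covariate, 1 member was higher and 3 lower in uninjured mGfap astrocytes, and Col1a1 (-1.70), Lama4 (2.14) and Col27a1 (0.84) were not called. The lines differ together in driver, in time of recombination and in tamoxifen, which only the Aldh1l1 line needs. By the ages the study states, the Aldh1l1 mice were also older than the uninjured mGfap mice at P63. These differences cannot be told apart. All libraries of both lines at 14 d in this comparison came from females, as did the uninjured Aldh1l1 libraries, whereas 3 of the 5 P63 libraries came from males.

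**Figure D5:**
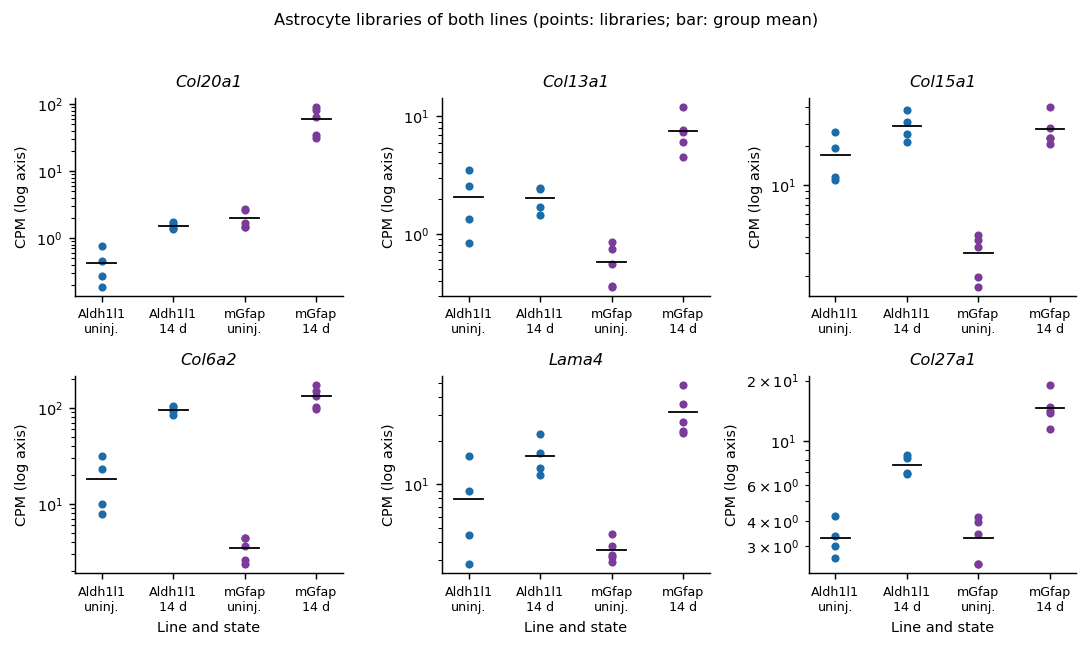
CPM (log axis) in astrocyte libraries of both lines, uninjured and at 14 d after SCI, with 1 point per library and a bar at each mean, for the 6 members whose change differed between lines at FDR under 0.01. Col20a1 reaches 31.2 to 91.3 CPM in mGfap libraries at 14 d from 1.44 to 2.70 CPM uninjured.

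Males and females of the Aldh1l1 line were compared over the astrocyte libraries at 5 and 14 d. Of 54 members tested, 0 were called by edgeR's quasi-likelihood test or by DESeq2, against 0.051% of all 17639 genes, which was 9 genes, with 583 at an unadjusted p under 0.05. The log2 differences of the members ran from -0.63 to 0.48.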

How the data were processed

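RNA sequencing was carried out on poly-A-selected RNA from the anti-HA precipitate (astrocyte libraries) and from its flow-through. Per the labels and the methods of the study, the authors used Trimmomatic for trimming, HISAT2 for alignment (mm10) and featureCounts at default settings, which ignore strand, and deposited whole-number counts per Entrez gene for each library. The study's reporting summary gives the Galaxy versions of these tools, which are not repeated here. Of 27179 gene IDs, 25275 were matched by ID to RefSeq symbols (GRCm38.p6), and rows were joined by ID because 18 files list them in another order.

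Counts were normalized by TMM and tested in edgeR 4.0.16 (R 4.3.3) with the quasi-likelihood F test (glmQLFit, robust) after filterByExpr, with 1 fit over all groups of a time course, and Benjamini-Hochberg adjustment over all genes tested. A change was called at FDR below 0.01. SE is the absolute log2 fold change divided by the square root of F. The fits were tried on simulated counts with known changes, placed only in well-counted genes and with the same dispersion for every gene. This does not bear on members with few counts or on groups whose libraries split. Levels are TMM-scaled CPM, and FPKM divides them by exon-union length in RefSeq. No replicate pair was a duplicate library (lowest mean chi-square per gene 19.3). Whether replicates of a group came from separate litters is not stated, so p-values measure the spread between these samples.

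Collagens and laminins were taken up as a family, and the roles, marker lists and partner lists were drawn up, with earlier results of these data known. Within the family, members follow from the symbol. Members named with values were drawn, in each structural role, from the 2 members with the highest mean level per length over the Aldh1l1 time course, in each comparison described, from the 3 called members with the largest absolute fold change whose groups did not overlap, with at most 3 called genes of each partner list and members added after their values were seen (among them Col3a1 at 2 d, Col4a6, Col11a2, Col22a1, Col18a1 at 2 d and Col27a1). One member enters the counts but is not reported here by name. Promoter windows from the RefSeq table of GRCm38.p6 were found for 40 of the 55 members. Astrocyte and flow-through libraries of 1 number were taken to come from the same animal, which the labels do not state. Their deviations from group means correlated with a median of 0.125 over 47 pairs (-0.0347 to 0.558). At 2 d (-0.027 to 0.058) and 28 d (-0.035 to 0.041) these correlations lay near 0. The main fits hold no block, and the replicate number as a block was an alternative. Numbers shared between uninjured and injured groups did not pair (median -0.0027 over 48 pairs). One flow-through library at 5 d is labelled male but is titled with the females of its group, and it was kept there. Other alternatives were DESeq2 1.42.0, RLE size factors, no filter on low counts, a fit of the 2 groups alone, labelled sex as a covariate, an FDR under 0.05 and leaving out each library in turn.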

Additional observations from a re-analysis of the deposited data

Results flagged for a closer look

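In groups of 4 to 10 libraries, 24 of 572 combinations of a group and 1 of 22 named members held a library that stood apart by Dixon's test, where chance would give about 1 in 20. In Aldh1l1 astrocyte libraries these were Col9a3 in uninjured library 3 (39.4 CPM), Col16a1 and Col6a2 in 5 d library 4 (125.2 and 51.9 CPM), Col1a1 in 14 d library 2 (668.6 CPM), Col26a1 in male 14 d library 3 (5.495 CPM) and Col16a1 in 42 d library 2 (50.6 CPM). In Aldh1l1 flow-through they were Col6a1 in 2 d library 1 (18.5 CPM), Col8a1 in 2 d library 2 (1022 CPM), Col16a1 in 5 d library 3 (180.0 CPM), Col15a1, Col26a1 and Col28a1 in male 5 d library 3 (92.7, 1.88 and 3.32 CPM), Lama4 in 14 d library 1 (55.9 CPM), Col16a1 in male 14 d library 4 (157.8 CPM), Col25a1 in male 14 d library 2 (4.23 CPM), and Col1a1 and Col23a1 in 28 d library 4 (504.2 and 33.99 CPM). In mGfap libraries they were Col26a1 and Lamb1 in 14 d flow-through library 4 (20.6 and 83.7 CPM), Col6a1 in 14 d flow-through library 1 (28.1 CPM), Col6a2 and Col8a2 in P0 library 3 (148.5 and 22.2 CPM), the P0 library with the highest Schwann cell gene sum (19670 CPM), Col1a2 in P35 library 3 (308.7 CPM) and Col9a3 in P35 library 1 (70.9 CPM). The part of other cells in these values was not tested.

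The change after SCI differed between the fractions, by a test of the difference itself, for 37 of 55 members at 2 d (50.7% of all genes), 23 at 5 d (28.5%) and 20 at 14 d (24.5%). Later counts were 9 at 28 d, or 16.4% of members against 28.4% of all genes, 11 at 42 d, or 20% against 23.3%, and 10 at 70 d, or 18.2% against 17.7%. These late shares were below or near those of all genes. Between the lines it differed for 6 members, or 10.9% against 12.7% of all genes, each larger in mGfap, which were Col13a1 (3.86), Col20a1 (3.16), Col6a2 (2.96), Col15a1 (2.53), Lama4 (2.28) and Col27a1 (1.05). Without uninjured animals 1 and 2, Lama4 and Col27a1 were not called and 1 member was called with a smaller change in mGfap.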

How the results depend on the processing

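Counts of members called moved by over 1.5 times in few settings, and the cause was not tested. In a fit of the 2 groups alone, 15 rather than 23 members were called in astrocytes at 42 d and 7 rather than 15 at 70 d. At an FDR under 0.05, 29 members were called between fractions of uninjured cord, 19 and 22 for the difference of changes at 28 and 42 d, 28 between P7 and P0, 19 and 15 between lines in uninjured cord and at 14 d, and 12 for the difference between lines in the change. Between the lines in uninjured cord, 4 members were called with labelled sex as a covariate and 6 without uninjured animals 1 and 2. With the replicate number as a block, the difference of changes at 28 d gave 14 members against 9, and no other total of members called moved by over 1.5 times. Split by direction, the block gave 11 higher and 14 lower between fractions of uninjured cord. For the difference of changes at 42 d it gave 0 larger and 16 smaller. Between injured and uninjured groups, replicate numbers share only a number, and the block left 32 members called in astrocytes at 14 d, as without it. Leaving out 1 library at a time gave 8 to 18 members for the difference of changes at 42 d and 17 to 25 for P63 against P21, and kept every other count within 1.5 times of its value. Of 9771 values of named genes under an alternative, 9297 kept direction and call, 6 gained a call, 2 turned in sign and the rest lost the call. Both reversals were of uncalled values near 0 in astrocytes when 1 uninjured library was left out, Lama2 at 14 d (-0.0057 to 0.21) and Col4a1 at 70 d (-0.025 to 0.26). Over all genes, DESeq2 called 2001 against 1279 between P63 and P21, a fit of the 2 groups alone called 4166 against 7996 between 5 and 2 d in flow-through, and labelled sex as a covariate left 729 of 2213 between lines in uninjured cord and 1423 of 2258 for the change. With RLE size factors the median change of all genes in flow-through at 2 d was -0.155 rather than -0.041, and the median difference of changes was 0.164 at 2 d and 0.0875 at 5 d. Between the sexes 0 members were called in each setting run, where DESeq2 called 12 genes and edgeR 9. Leaving out uninjured animals 1 and 2, 2 d flow-through libraries 2 and 4 (34 members higher and 6 lower) or the P35 group was chosen after seeing the data. Members with few counts, such as Col10a1 and Col6a4, are limited by depth.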
